A study of Homo sapiens with 2 samples.

Results

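The cytosolic and mitochondrial chaperones described here are 10 genes, HSPA8, HSPA9, HSPA4, HSPH1, DNAJA1, HSP90AA1, HSP90AB1, TRAP1, HSPD1 and HSPE1. They were taken by name, with every probe set that the platform's annotation assigns to one of them alone, which gave 28 probe sets out of 41091. Of the 10 genes, 9 had at least 1 such probe set, out of 19775 genes on the array that did. The 4 probe sets of HSPA8, the constitutive cytosolic HSP70, also list 2 small nucleolar RNA genes, SNORD14C and SNORD14D, so no value is given for it.

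Both arrays were hybridised with RNA of MEG-01 cells, a human megakaryoblastic line from a chronic myeloid leukaemia. The Venus cells carried the control lentivirus, which expresses the yellow fluorescent protein Venus, and the GAS2DN cells carried the same vector with a truncated, dominant negative form of growth arrest specific 2 (GAS2) under the spleen focus forming virus promoter. Transduced cells of both kinds were sorted by fluorescence, and 3 extracts per condition were pooled before 1 array was run, so the spread between extracts cannot be seen and no test between conditions could be made. Every ratio below is the GAS2DN signal over the Venus signal of 1 probe set, and the number of arrays limits its precision.

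The deposited values are log2 of MAS5 signals, given here as linear signals. The median signal was 55.6 in Venus and 69.1 in GAS2DN cells, and the brightest probe set reached 46594 and 58539. Of 13 megakaryocyte genes 12 had a probe set of their own, and 8 of these were at or above the median on both arrays, among them ITGA2B and GATA1, while PF4, PPBP and VWF were below it on both. A probe set counts as eligible when the brighter of its 2 signals reached the array median. The only repeated measure is that of several probe sets for 1 gene. Probe sets were put in 10 equal classes by mean signal. In the brightest class the SD of the log2 ratio between probe sets of the same gene was 0.25 (913 genes), in the ninth 0.34, in the eighth 0.41 and in the fifth 1.24, and these values serve as the yardstick.

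Molecular chaperones bind unfolded or unstable proteins and release them for folding. HSP70 proteins do so in a cycle driven by ATP, in which J domain proteins such as DNAJA1 stimulate hydrolysis and the HSP110 proteins HSPA4 and HSPH1 exchange the nucleotide. HSP90 receives clients from HSP70, and in chronic myeloid leukaemia it is known for holding the BCR-ABL kinase in a stable state. In mitochondria HSPA9 pulls in and folds imported proteins, TRAP1 is the HSP90 of the matrix, and HSPD1 with its lid HSPE1 forms the chamber in which many matrix proteins fold. Many of these genes are known targets of heat shock factors, which bind repeats of the unit GAA and its complement TTC.

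The promoters were read for such repeats because they are the regulatory sequence that the family is best known for. RefSeq windows of 300 bases (GRCh38.p14, 250 bases before to 50 after a start site) were found for all 10 genes, 14 windows in all, and searched on both strands for 3 alternating units spaced by 2 bases, GAANNTTCNNGAA or its complement TTCNNGAANNTTC. The letters were found in 5 of the 14 windows, those of HSPA8, DNAJA1, HSP90AA1, HSP90AB1 and HSPD1, and in 0.49% of 35116 windows over all genes. Either pair of units, GAANNTTC or TTCNNGAA, both of which lie inside the longer motif, was found in 6 of the 14 windows and in 13.5% of all. The window of HSPA9 held a pair but not 3 units, and those of HSPA4, HSPH1, TRAP1 and HSPE1 held neither. A match says only that the letters are there, and a miss only that these exact letters are not. The stretches with 3 units follow, 5′ to 3′ on the strand of the gene, with the matched bases in capitals.
HSPA8, chr11:123062334-123062386, minus strand: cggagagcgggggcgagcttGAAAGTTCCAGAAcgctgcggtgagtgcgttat
HSPA8, chr11:123062159-123062211, minus strand: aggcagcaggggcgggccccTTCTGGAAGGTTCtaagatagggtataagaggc
DNAJA1, chr9:33025268-33025296, plus strand: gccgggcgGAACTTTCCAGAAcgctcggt
HSP90AA1, chr14:102087100-102087152, minus strand: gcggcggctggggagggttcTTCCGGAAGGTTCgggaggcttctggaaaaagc
HSP90AB1, chr6:44247758-44247810, plus strand: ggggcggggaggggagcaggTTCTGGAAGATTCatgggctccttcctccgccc
HSP90AB1, chr6:44247811-44247863, plus strand: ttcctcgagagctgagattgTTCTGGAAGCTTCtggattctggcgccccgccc
HSPD1, chr2:197500048-197500090, minus strand: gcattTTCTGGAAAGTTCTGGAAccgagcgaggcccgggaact

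The match of HSPD1 spans 18 bases because 2 matches overlap in it. HSPD1 and HSPE1 lie head to head, and the annotated gene of HSPE1 starts 105 bases beyond the end of HSPD1. The HSPD1 match lies between the 2 annotated starts of that gene, 294 bases before the start of HSPE1 and so outside the HSPE1 window. In DNAJA1 the 3 units begin 3 bases after the start site, while in HSP90AA1 they begin at position -88 from the only one of its 2 starts whose window holds them.

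**Figure D1:**
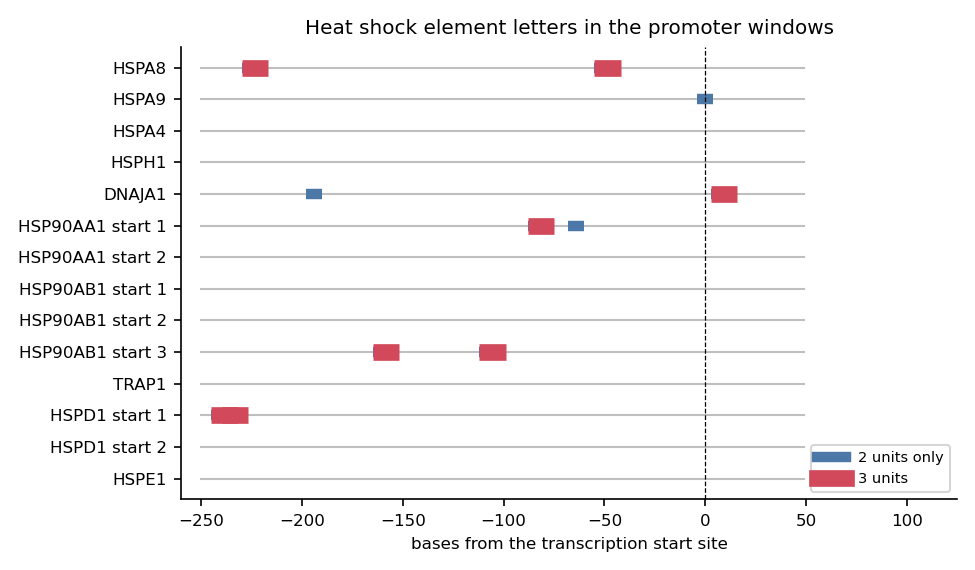
Position of heat shock element letters in the 14 RefSeq promoter windows of the 10 chaperone genes, in bases from the transcription start site. Red blocks mark 3 alternating units and blue blocks pairs of units outside them. The windows of HSPA4, HSPH1, TRAP1 and HSPE1 are empty. So are those of HSP90AA1 start 2, HSP90AB1 starts 1 and 2, and HSPD1 start 2.

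All 9 genes were measured far above the middle of the arrays. By the main probe set, the brightest one of a gene (leaving out names ending in _x_at where there is another), signals ran from 2304 to 38098, and 19 of the 28 probe sets lay in the brightest class, at least 1 for each of the 9 genes. Signals of different probe sets cannot be read as relative transcript levels.

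HSPA9, the mitochondrial HSP70, was lower on the GAS2DN array in all 4 of its probe sets. The main one, 200691_s_at, had a signal of 15694 in Venus and 14374 in GAS2DN cells, a log2 ratio of -0.13. The next had 8787 and 8212, a log2 ratio of -0.10, and the third 2281 and 2047, a log2 ratio of -0.16. These 3 differ from equal signals by less than the SD of 0.25. The fourth probe set, 232200_at, had 76.9 and 20.8, a log2 ratio of -1.89 and a ratio of 0.270. Only its Venus signal was at or above the array median, and with signals below the median raised to it the log2 ratio was -0.16. The 4 probe sets of HSPA9 thus had one direction, and only the dim one showed a large difference. HSPA9 is also on a gene list of the study that combined these 2 arrays with public arrays of leukaemic cells, so its choice is not independent of these values.

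HSPA4, an HSP110 that acts as exchange factor for cytosolic HSP70, was lower in all 4 probe sets as well. The main probe set, 211015_s_at, had 5930 in Venus and 5848 in GAS2DN cells, a log2 ratio of -0.02. Of the others, 208815_x_at had 6412 and 5745, a log2 ratio of -0.16, and 211016_x_at had 842 and 765, a log2 ratio of -0.14. These 3 lie within the SD of their class. The probe set 208814_at had 1457 and 1023, a log2 ratio of -0.51, beyond the SD of 0.34 in the ninth class, where 7.05% of probe sets had a lower ratio.

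HSPH1, the heat-inducible HSP110, had probe sets in both directions. The main one, 206976_s_at, had 9183 in Venus and 10275 in GAS2DN cells, a log2 ratio of 0.16, and 208744_x_at had 1627 and 1710, a log2 ratio of 0.07. The third, 235573_at, had 648 and 398, a log2 ratio of -0.70, beyond the SD of 0.41 in the eighth class. The annotation assigns all 3 to HSPH1 alone, and they disagree on the direction.

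DNAJA1, the HSP40 co-chaperone that hands substrates to cytosolic HSP70, had the largest difference among the main probe sets. That probe set, 200881_s_at, had a signal of 10564 in Venus and 8357 in GAS2DN cells, a log2 ratio of -0.34. The other, 200880_at, had 5948 and 3745, a log2 ratio of -0.67 and a ratio of 0.630. Both probe sets were bright, both were lower on the GAS2DN array and both lay beyond the SD of 0.25. In the brightest class 8.84% of probe sets had a lower ratio than the first and 2.03% a lower one than the second.

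HSP90AA1, the stress-inducible cytosolic HSP90, had 4 bright probe sets close to equal signals. They went from 31567 to 32826, from 26310 to 27868, from 25424 to 24236 and from 10700 to 10265 between Venus and GAS2DN cells. The log2 ratios were 0.06, 0.08, -0.07 and -0.06. The range of 0.15 over the 4 is smaller than the SD between probe sets of a gene.

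HSP90AB1, the constitutive cytosolic HSP90, had the highest log2 ratio among the main probe sets, 0.21, from signals of 23513 (Venus) and 27257 (GAS2DN). The other 2 had 15188 and 13573, a log2 ratio of -0.16, and 10411 and 11012, a log2 ratio of 0.08. All 3 lie within the SD, and they do not share a direction.

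TRAP1, the mitochondrial HSP90, had 2376 in Venus and 2304 in GAS2DN cells by 201391_at, a log2 ratio of -0.04. Its other probe set, 239622_at, had 9.56 and 3.99, a log2 ratio of -1.26 from signals below the median on both arrays, and was the only member probe set that was not eligible.

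HSPD1, the subunit of the mitochondrial folding chamber, had 5 probe sets that spread more widely than those of any other member. The brightest, 200807_s_at, had 36697 in Venus and 38098 in GAS2DN cells, a log2 ratio of 0.05. The next, 200806_s_at, had 16423 and 13497, a log2 ratio of -0.28, and 243372_at had 667 and 399, a log2 ratio of -0.74, both beyond the SD of their class. The dim 243845_at had 44.6 and 78.4, a log2 ratio of 0.81, and the dim 241716_at had 69.6 and 20.3, a log2 ratio of -1.78. With signals below the median raised to it, these last 2 had 0.50 and -0.01. As deposited, the 2 brightest probe sets of HSPD1 differ in direction. Under 2 other scalings of the arrays both were below 0, with -0.09 and -0.36 after loess and -0.20 and -0.35 after quantile normalization.

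HSPE1, the lid of that chamber, had 1 probe set, which read 21359 (Venus) and 21334 (GAS2DN), a log2 ratio of -0.002. It was the member closest to equal signals. The annotation holds 28 pseudogenes named after HSPE1, 22 after HSPD1, 6 after DNAJA1, 2 after HSPA9, and 5 and 6 for the alpha and beta HSP90 genes. Whether the probes also read transcripts of these copies was not tested.

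**Figure D2:**
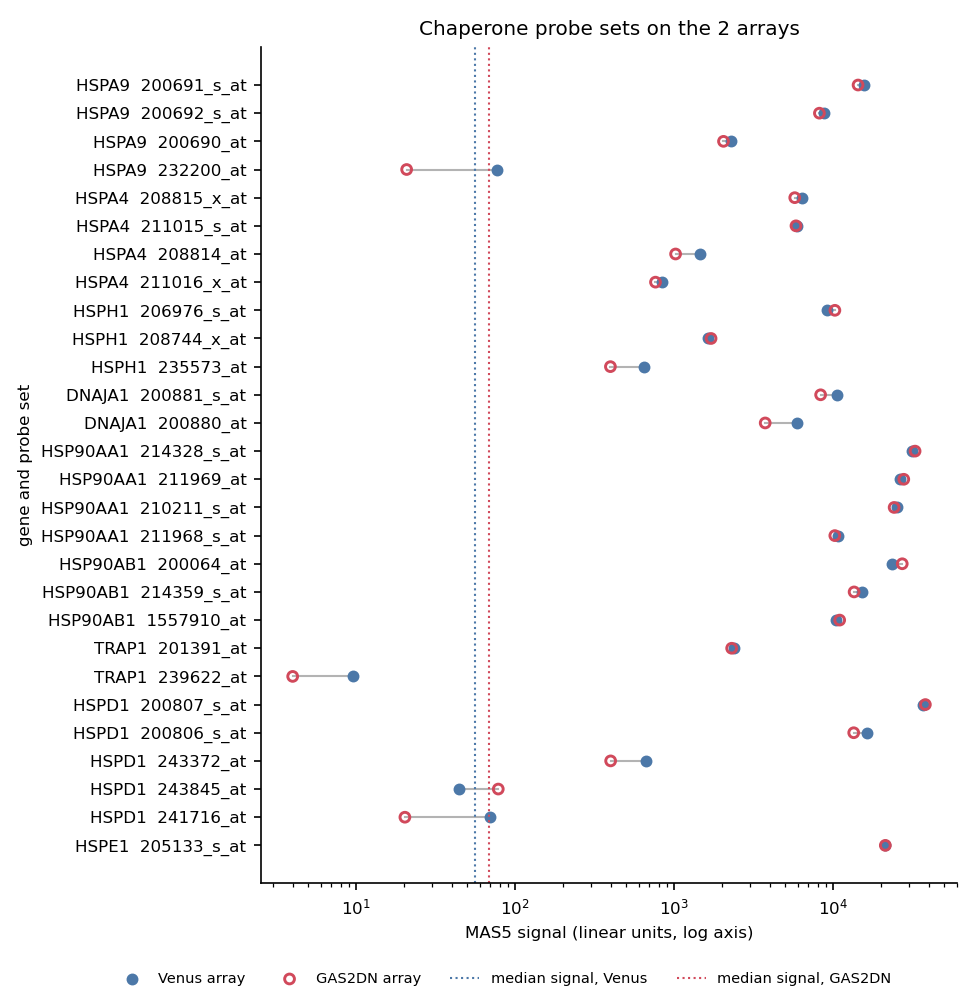
MAS5 signal (linear units on a log axis) of each of the 28 probe sets on the Venus array (filled blue) and the GAS2DN array (open red), with the median signal of each array as a dotted line. Most bright pairs nearly coincide, those of DNAJA1 lie further apart, and wide gaps are seen in the probe sets of HSPA9, HSPD1 and TRAP1 with signals near or below the medians.

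Taken over the genes, 5 of the 9 main probe sets had a log2 ratio below 0 and 4 above it, and the median was -0.002, against a median of 0.06 and 43.7% below 0 over 13127 measured genes, those whose main probe set is eligible. Of the 9 genes 5 had a main probe set within 0.1 of 0 and 8 within 0.25. Over probe sets, 19 of the 27 eligible ones were below 0 against 45.2% of all eligible single-gene probe sets, and 13 of the 19 in the brightest class against 43.6% of 4811. The median of these 19 was -0.06 and that of the 4811 was 0.04. The 19 come from 9 genes and are not independent, and 16 of them differ from equal signals by less than the SD of 0.25. The 3 that differ by more are both probe sets of DNAJA1 and the second of HSPD1. The shares of all measured genes within 0.1 and 0.25, and of the 4811 within the SD, were not counted. Over all 5462 probe sets of the brightest class the SD of the log2 ratio was 0.28, so such closeness is no result about the chaperones.

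Over 2-fold differences were confined to dim probe sets among the members. Of the 27 eligible ones 2 were over 2-fold lower on the GAS2DN array, against 6.05% of all eligible single-gene probe sets, and none was over 2-fold higher, against 8.47%. The same 2, 232200_at of HSPA9 and 241716_at of HSPD1, were over 3-fold lower, against 3.34%. Their GAS2DN signals lay below the array median, as did both signals of 239622_at of TRAP1, which was also over 2-fold lower but not eligible. Of the 24 member probe sets with both signals at or above the array median, 0 were over 2-fold either way. The share of all single-gene probe sets under that filter was not counted, so this is no result about the members. Over all probe sets 13.1% of the fifth class, which holds 232200_at and 241716_at, were over 2-fold lower, and 0.68% of the brightest. In the brightest class 0.707% of single-gene probe sets were over 2-fold in either direction and 0 of the 19 member probe sets were.

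**Figure D3:**
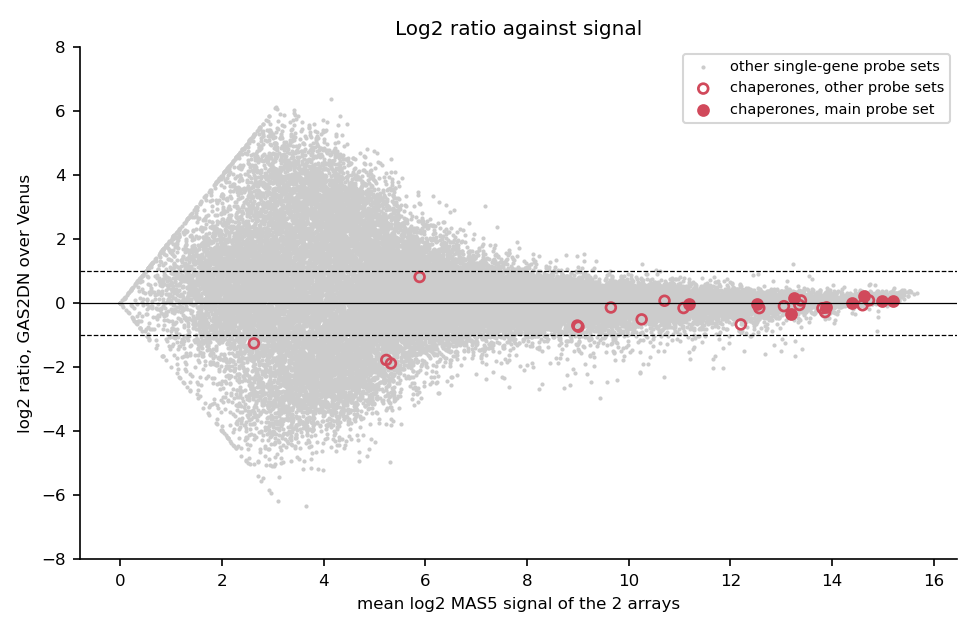
Log2 ratio of GAS2DN over Venus against the mean log2 MAS5 signal of the 2 arrays, for all 41091 single-gene probe sets (grey) and the 28 of the chaperones (red, filled for the main probe set of a gene). Dashed lines mark 2-fold, and the main probe sets lie between -0.34 and 0.21 at the bright end, where the grey points are narrow.

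The direction of small ratios depended on the scaling of the arrays. With each array centred on its median, which lowers the log2 ratio of the median measured gene by 0.31, all 9 main probe sets were below 0. So were 75.1% of the 13127 measured genes. Relative to the median of all measured genes, the median of the 9 was -0.06 as deposited and with centring, -0.11 after loess and -0.15 after quantile normalization. DNAJA1, HSPA9, TRAP1 and HSPE1 were below 0 under all 4 scalings, DNAJA1 with log2 ratios of -0.34 to -0.65, and HSPA4 under all but quantile normalization, where it had 0.002. HSP90AA1 and HSPD1 were above 0 only as deposited. HSPH1 and HSP90AB1 were above 0 except with centring, and above the median of all measured genes under all 4.

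The choice among probe sets moved several members. Without names ending in _s_at or _x_at, 8 genes kept a value, 6 of them below 0, and their median log2 ratio was -0.33. Over the 10507 genes measured under this choice the median was 0.05, with 45.0% below 0. DNAJA1 then had -0.67, HSPA4 -0.51, HSPH1 -0.70 and HSPD1 -0.74, and the last 3 of these rest on probe sets below the brightest class. In the brightest class the 6 member probe sets with plain names ending in _at had a median of 0.02 and the 13 others -0.07.

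Genes that work with these chaperones were described by 9 lists with 87 genes, of which 70 were measured. By main probe sets 39 of the 70 had a log2 ratio above 0 and 31, or 44.3%, below, near the 43.7% of all measured genes, and the median was 0.05 against 0.06. The directions given for the lists are as deposited. With centring the median of each of the 9 lists was below 0, and so was that of all measured genes, -0.26. As deposited, 2 of the 70 were over 2-fold higher, the small heat shock protein CRYAB and HSPA12B, against 7.88% of measured genes, and 0 over 2-fold lower, against 4.43%. CRYAB had 14.5 in Venus and 139 in GAS2DN cells, a log2 ratio of 3.26, and HSPA12B, a distant HSP70 relative, had 42.1 and 85.0, a log2 ratio of 1.02. Both Venus signals were below the array median, so both genes counted as measured only through the GAS2DN array. With signals below the median raised to it, CRYAB had 1.32 and HSPA12B 0.61, no longer over 2-fold, which also held for HSPA12B after loess and quantile normalization and with centring. None of the 68 partner genes whose signals reached the median on both arrays was over 2-fold as deposited. The share of all measured genes under that stricter filter was not counted, so this is no result about the partner genes.

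Co-chaperones of HSP90 were the list with the lowest median, -0.14, and 9 of 13 measured genes were below 0. The median was -0.14 after loess and -0.13 after quantile normalization. PPID, a cyclophilin that binds HSP90, had the lowest log2 ratio, -0.32, from 7421 (Venus) to 5958 (GAS2DN), and -0.22 and -0.10 in its other eligible probe sets. CDC37, which brings kinases to HSP90, had the highest, 0.13. Most of these differences are about as large as the SD of 0.25 or smaller.

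Among regulators of HSP70, 5 of 8 were below 0 with a median of -0.02, or 0.002 after quantile normalization. STUB1, the ubiquitin ligase CHIP, had 8109 in Venus and 4355 in GAS2DN cells, a log2 ratio of -0.90, but its other eligible probe sets had 0.05 and -0.17. BAG3, a stress-inducible exchange factor, had 0.22. Among J domain co-chaperones 8 of 13 were above 0 with a median of 0.09, from -0.41 for DNAJB6 to 0.99 for DNAJB5, the latter from 68.2 to 135. The DNAJB5 probe set lies in the sixth class, where the SD is 0.85. Of the other HSP70 family genes only 4 were measured, 2 above and 2 below 0. The 2 above include HSPA12B, which was measured only through the GAS2DN array. HSPA4L, a close relative of HSPA4, had a log2 ratio of -0.66, from 1095 (Venus) to 691 (GAS2DN), and -0.70 in its other eligible probe set. The stress-inducible HSPA6 had 62.9 and 109, a log2 ratio of 0.80, also in the sixth class and within its SD of 0.85.

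The cytosolic chaperonin TRiC, which folds actin and tubulin, had 5 of 7 measured subunits above 0 with a median of 0.09, though -0.05 after loess and -0.03 after quantile normalization. Its subunits ran from -0.42 for CCT6A, which had -0.09 in its other probe set, to 0.25 for CCT5, which had -0.17 in its other. Prefoldin, which delivers substrates to TRiC, had 4 of 5 above 0 with a median of 0.05, from -0.18 for PFDN4, which had -0.11 in another probe set and a dim one that went from 5.34 to 79.0, to 0.35 for PFDN5, which had 0.33 in its other probe set. Of the small heat shock proteins 3 of 9 were measured, all above 0. CRYAB was measured only through the GAS2DN array, so its place above 0 was fixed by that filter. HSPB1 had 2275 in Venus and 2462 in GAS2DN cells, a log2 ratio of 0.11. HSPB8, the lowest of the 3, had 85.9 and 90.4, a log2 ratio of 0.07.

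Mitochondrial partners and proteases had 9 of 15 measured genes above 0 with a median of 0.15. The protease subunit CLPX had the highest log2 ratio, 0.51, though -0.08 in its other probe set, and the exchange factor GRPEL2 the lowest, -0.32, though 0.53 in its other. GRPEL1, the exchange factor of HSPA9, had 0.16 and 0.12. The heat shock factor HSF1 had 945 in Venus and 899 in GAS2DN cells, a log2 ratio of -0.07. Another probe set of HSF1, which reached the array median on only 1 array, had 0.75. HSBP1, the binding partner of HSF1, had 0.15.

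**Figure D4:**
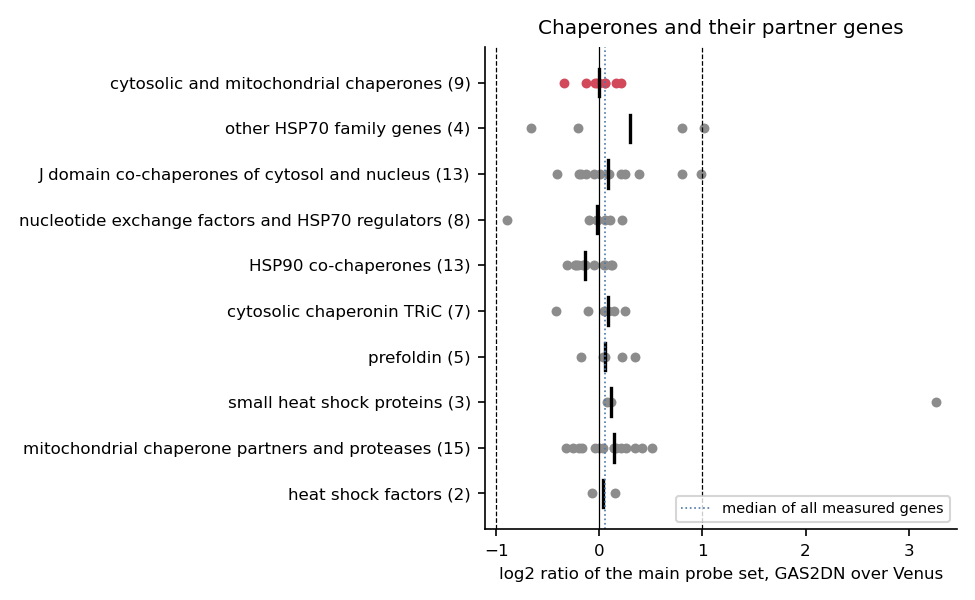
Log2 ratio of GAS2DN over Venus by the main probe set of each measured gene, for the 9 chaperones (red) and the 9 partner lists (grey), with the number of genes in brackets, the median of each row as a black bar and 2-fold as dashed lines. Most points lie near 0, and the point at 3.26 is CRYAB, whose Venus signal was below the array median and which had 1.32 with low signals raised to the median.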

How the data were processed

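For each condition 3 MEG-01 extracts were pooled for 1 Affymetrix U133 Plus 2.0 array. The authors deposited log2 MAS5 signals (version not given in the sources used here), scaled to a 2% trimmed mean of 500.1 on both arrays. Gene names came from the platform annotation, with symbols updated by gene identifier (41037 probe sets) or kept (54). The 62 control probe sets and 1801 with several genes were not used. Log2 ratios, 10 classes of signal, SDs between probe sets, partner lists and promoter matches were computed with Python 3.11.15, numpy 2.4.6, pandas 2.3.3 and statsmodels 0.14.6, and figures drawn with matplotlib 3.10.9. Of these steps only the log2 ratios of genes, as given and after loess and quantile scaling, were tested on simulated data. Folds of 2 and of 3, the study's threshold, were counted. Alternatives were 3 scalings (median centring, quantile, and loess at span 0.2 with 3 iterations), 2 choices of probe set, 2 treatments of low signals and 2 filters. Named genes were all members, the highest and lowest gene of each partner list and any over 2-fold, and others were chosen after their values were seen. Members and lists were chosen with earlier results of these data known, and the heat shock element letters after the files were seen. Protein sequences were not used here.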

Additional observations from a re-analysis of the deposited data

How the results depend on the processing

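With 1 array per condition no alternative could leave out a replicate, and no paired analysis was possible because each condition has a single array. The count of members with a main probe set below 0 was 5 of 9 as deposited and 9 of 9 with each array centred on its median, where the median log2 ratio was -0.31. Centring also put 75.1% of all 13127 measured genes below 0, with a median of -0.26. With _s_at and _x_at names left out, 6 of 8 members were below 0 and their median was -0.33, against 45.0% and 0.05 over 10507 measured genes. Where both signals had to reach the array median, 0 member probe sets were over 2-fold lower and 0 over 3-fold lower, against 2 and 2, since the filter removes the 2 dim ones. The share of all probe sets under that filter was not counted. The other alternatives gave counts of 5 to 7 below 0 and medians of -0.11 to -0.0008. Of 62 recomputed ratios of single members 48 moved by less than the SD between probe sets of their class and 14 by more, and 13 changed sign. The 14 include every measured member under centring, which lowers all ratios alike by 0.31. Of 63 recomputed list medians 11 changed sign. The number of partner genes over 2-fold, 2 higher and 0 lower as deposited, ran from 1 to 4 higher and from 0 to 2 lower. Without _s_at and _x_at names only 47 of the 70 kept a value. By the median over eligible probe sets, which gave 4 higher, DNAJA4 and DNAJC13 were over 2-fold through a probe set that reached the median on only 1 array. The shares of all measured genes under these alternatives were not counted, so the counts are no result about the partner genes.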

Other observations

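Over all genes, 51 measured genes had a promoter window with 3 heat shock element units. Their main probe sets were below 0 in 17, or 33.3%, with a median log2 ratio of 0.11, against 44.3% and 0.05 for the 10592 measured genes with any promoter window. In the brightest of 10 signal classes, where the chaperones lie, 5 of 14 such genes, or 35.7%, were below 0 against 43.6% of the 2980 genes with any window, and the median was 0.04 in both. Of the 14 genes 4 are the chaperones themselves. The 4 measured chaperones with 3 units had log2 ratios of -0.34 for DNAJA1, 0.06 for HSP90AA1, 0.21 for HSP90AB1 and 0.05 for HSPD1.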
